A study of Mus musculus with 6 samples.

Results

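Taste, vomeronasal and trace amine receptors are chemosensory G protein-coupled receptors, and their genes were followed here in sorted epithelial cells of the mouse thymus and thyroid. The members were all non-control array probes whose gene name begins with Tas1r, Tas2r, V1r, V2r, Vmn1r, Vmn2r or Taar. The rule took 139 of the array's 27745 gene names, read by 144 of its 41174 probes. They fell into 5 families: 3 Tas1r probes, 13 Tas2r probes, 114 V1r probes, 10 V2r probes and 4 Taar probes. The rule read gene names and no values, though it was chosen with earlier results of these data known. Most vomeronasal names are those of the array's design. By accession or older symbol 142 of the 144 probes were tied to a current RefSeq gene, and V1rb5 and V1rb6 kept the name in the file.

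RNA from C57BL/6 mice was labelled with Cy3 and hybridised to 6 single-colour Agilent arrays, 3 per group. The thymic group (ThymusEC) held cells of the thymic medulla sorted as Epcam+ UEA1+ CD45- Fluorogold-, and its replicates 1, 2 and 3 pooled 6, 6 and 2 thymi. The thyroid group (ThyroidEC) held cells sorted as Epcam+ CD45- Fluorogold-, with 20 thyroids pooled in each replicate. Epcam is an epithelial adhesion protein, UEA1 a lectin that marks medullary epithelium, CD45 the surface marker of blood cells, and Fluorogold a dye that marks dead cells. The labels give no age, sex or treatment, and the submitters call the replicates of a group independent.

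Tas1r genes encode the sweet and umami receptors: Tas1r3 is the shared subunit, which pairs with Tas1r2 for sweet taste and with Tas1r1 for umami taste. Tas2r genes encode bitter receptors. In taste cells and in tuft cells, which are chemosensory epithelial cells of other organs, these receptors signal through a G protein to the phospholipase Plcb2, the calcium release channel Itpr3 and the cation channel Trpm5. V1r and V2r receptors detect pheromones and other cues in the vomeronasal organ, where they signal through the channel Trpc2. Trace amine receptors of the Taar family are, apart from Taar1, expressed in olfactory neurons. Medullary thymic epithelium is known for transcribing many genes that are otherwise restricted to other tissues.

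The level of a probe is given throughout as log2 of its processed signal minus the 75th percentile of all probes on the same array, so that 0 is the signal of the probe at that percentile and negative levels lie below it. Levels are compared between arrays for the same probe, never between probes. A probe was called above background on an array where the scanner software set its flag for a signal well above background. The lowest signals with that flag had levels of -6.32, -6.21 and -5.97 for thymic replicates 1 to 3, and thyroid replicates 1 to 3 had floors of -6.14, -5.33 and -6.48. Negative control spots had median levels between -8.56 and -7.44, and none of them carried the flag on any array. Thyroid replicate 2 had the highest floor and the fewest probes above background of all arrays, 65.4% against 70.4% and 72.8% on the other thyroid arrays and 78.4% to 81.0% on the thymic arrays. No spot was saturated. The number of arrays limits the precision.

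The probes that carry the comparison are 60 bases long and are printed 5′ to 3′ in lower case. They show what each array feature reads, and the capitals used further on mark only bases that 2 probes share. The files place them on the mm8 build, the Tas1r probes on chromosome 4 and the 6 bitter receptor probes on chromosome 6. No exon or UTR annotation of that build was used here.
Tas1r1, chr4:150871884-150871943, minus strand: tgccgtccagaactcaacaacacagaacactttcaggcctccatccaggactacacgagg
Tas1r2, chr4:138942234-138942293, plus strand: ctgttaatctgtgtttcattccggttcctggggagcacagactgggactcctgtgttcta
Tas1r3, chr4:154703709-154703768, minus strand: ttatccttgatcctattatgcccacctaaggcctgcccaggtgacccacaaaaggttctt
Tas2r105, chr6:131652542-131652601, minus strand: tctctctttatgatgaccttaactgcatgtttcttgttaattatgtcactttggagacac
Tas2r140, chr6:133020849-133020908, minus strand: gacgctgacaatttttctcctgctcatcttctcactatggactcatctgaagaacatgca
Tas2r108, chr6:40423432-40423491, plus strand: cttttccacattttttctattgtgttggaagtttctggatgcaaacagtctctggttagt
Tas2r102, chr6:132728707-132728766, plus strand: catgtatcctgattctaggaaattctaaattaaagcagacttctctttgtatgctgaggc
Tas2r107, chr6:131625245-131625304, minus strand: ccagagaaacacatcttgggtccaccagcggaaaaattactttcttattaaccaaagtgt
Tas2r118, chr6:23919459-23919518, minus strand: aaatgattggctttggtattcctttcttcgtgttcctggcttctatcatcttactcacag
None of these 9 probes shared a run of 20 or more bases with a probe of another gene on the array.

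Most chemosensory receptor probes gave no signal above background in either tissue. Of the 144 probes, 98 (68.1%) were above background on none of the 6 arrays, against 15.5% of all probes and 70.2% of the 957 probes for olfactory receptors (Olfr). These 98 comprised 87 of the 114 V1r probes, 5 of the 10 V2r probes, 5 of the 13 Tas2r probes and 1 of the 4 Taar probes. By contrast 11 probes were above background on all 6 arrays: Tas1r2, Tas1r3, V1ra4, V1rb8, V1rc8, V1re12, V1ri1, V1ri4, V1ri6, V2r5 and Taar9. The remaining 35 probes were above background on 1 to 5 arrays.

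Bitter receptors differed most in detection between the tissues. Of the 13 Tas2r probes, 61.5%, 46.2% and 46.2% were above background in the 3 thymic replicates, whereas the thyroid replicates gave 0%, 0% and 7.69%. Every thymic array thus lay above every thyroid array, and the group means were 51.3% ± 8.88 and 2.56% ± 4.44 (SD, n = 3 each). The Tas1r share was 100% on the thymic arrays and on thyroid arrays 1 and 3, and 66.7% on thyroid array 2.

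Vomeronasal and trace amine receptors showed no such separation. Of the 114 V1r probes, 20, 18 and 12 were above background in the thymic replicates and 12, 7 and 16 in the thyroid replicates, and the groups overlapped. Of the 10 V2r probes, 4, 3 and 1 stood against 1, 2 and 2, and of the 4 Taar probes 3, 2 and 2 against 2, 1 and 3, again with overlap. Over all 144 probes the shares were 26.4%, 22.2% and 16.7% in the thymus and 12.5%, 8.39% and 17.4% in the thyroid, so that thyroid replicate 3 lay above thymic replicate 3. The difference of the group means was 9.01 percentage points, and 14.8 points with the scanner's weaker flag for a positive and significant signal.

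Other receptor genes and the array as a whole give the scale for these shares. Over all probes 79.5% ± 1.32 were above background on the thymic arrays and 69.5% ± 3.77 on the thyroid arrays (SD, n = 3 each). The 136 Gpr probes, for orphan and other G protein-coupled receptors, ran from 64.0% to 66.9% in the thymus and from 37.5% to 50% in the thyroid. The Olfr probes ran from 21.6% to 24.0% and from 13.5% to 22.2%. In 5 of 13 Tas2r probes all 3 thymic arrays and no thyroid array were above background, a pattern that 3 of 114 V1r probes and 7.75% of all probes showed. All 3 thymic arrays were above background for 24 of the 144 receptor probes, against 77.0% of all probes, and all 3 thyroid arrays for 11, against 64.8%. Whatever the flag, 28 receptor probes had all thymic values above all thyroid values, against 34.3% of all probes, and 6 had the reverse, against 29.1%.

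**Figure D1:**
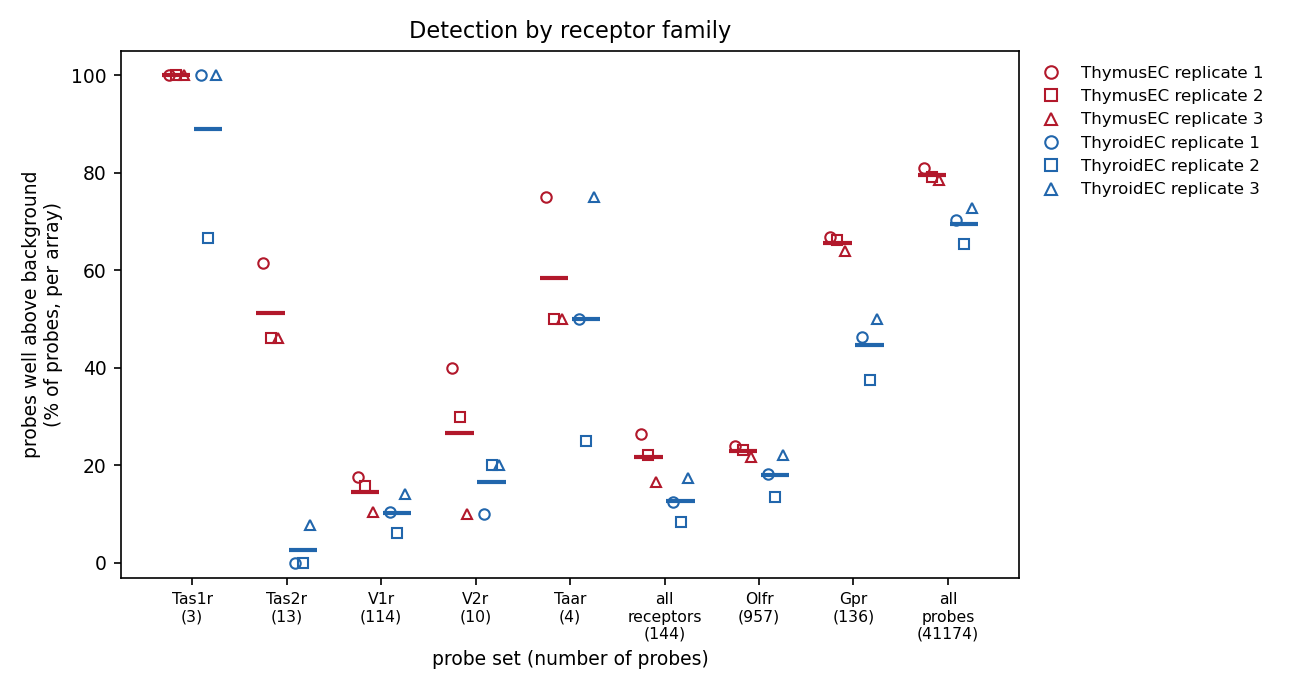
Share of probes well above background on each array (y axis, percent), by probe set (x axis, number of probes in brackets). Red symbols are the ThymusEC arrays and blue symbols the ThyroidEC arrays, with a different shape per replicate, and horizontal bars are means of 3 arrays. The Tas2r arrays separate completely, with 46.2% to 61.5% in the thymus against 0% to 7.69% in the thyroid, whereas the V1r, V2r and Taar arrays overlap.

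The levels were compared with limma over all probes that one group or the other had above background in each of its 3 replicates, and a probe was called at a Benjamini-Hochberg adjusted p under 0.05 over the 32370 probes tested. Of the receptors 24 probes could be tested. Of these, 14 were higher in ThymusEC and 0 were higher in ThyroidEC, where 37.3% and 31.3% of all tested probes were called in these directions. At an unadjusted p under 0.05 limma gave 15 and 0. The 14 were 2 Tas1r, 6 Tas2r, 5 V1r and 1 Taar probes. Of the 14, all but Tas1r2 entered the test only through their thymic arrays, the 6 Tas2r probes among them. No receptor entered through the thyroid alone, since the 11 above background on all 3 thyroid arrays were so on all 6 arrays. The filter thus favoured the thymic direction, and the 14 against 0 cannot be read apart from it. Counted over all probes with untested ones as not called, 14 of 144 receptors (9.72%) stood against 29.3% of all probes, 6 of 13 Tas2r (46.2%) and 5 of 114 V1r (4.39%). With no filter on dim probes, limma called 23 of the 144 receptors higher in ThymusEC and 6 higher in ThyroidEC, against 30.3% and 24.2% of all probes. Among probes above background on all 6 arrays, 2 of 11 receptors were higher in ThymusEC and 0 in ThyroidEC, against 28.2% and 37.8% of such probes.

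The split of the calls depended on the scaling of the arrays. With quantile normalization 8 receptor probes were higher in ThymusEC and 8 in ThyroidEC, and with median centring 10 and 5. The median difference over all tested probes was 0.06 as reported, -0.15 after quantile normalization and -0.47 after median centring. Median centring moves every probe of an array alike, whereas quantile normalization does not: it took the difference of Tas1r2 from 1.31 to 0.39 and that of Tas2r105 from 7.43 to 7.45. Arrays also differed by slide, since thymic replicates 1 to 3 and thyroid replicate 1 shared a slide and thyroid replicates 2 and 3 another. By family, the 6 Tas2r calls were 6, 6 and 5 after quantile normalization, median centring and normexp background correction, the 5 V1r calls 1, 3 and 0, and the 2 Tas1r calls 1, 1 and 1. Leaving out thymic replicate 1 left 3 V1r calls, leaving out thymic replicate 3 or thyroid replicate 1 left 1 Tas1r call, and leaving out thyroid replicate 2 gave 3 V1r calls for ThyroidEC. With the slide as a block 12 receptor probes were higher in ThymusEC and 0 in ThyroidEC, and on slide 1 alone 15 and 3. Tas1r1, Tas2r102, Tas2r105, Tas2r107, Tas2r108 and Tas2r140 were called higher in ThymusEC in every one of the 21 fits that tested them. Fewer expressing cells and less RNA per cell cannot be told apart in such sorted bulk samples.

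**Figure D2:**
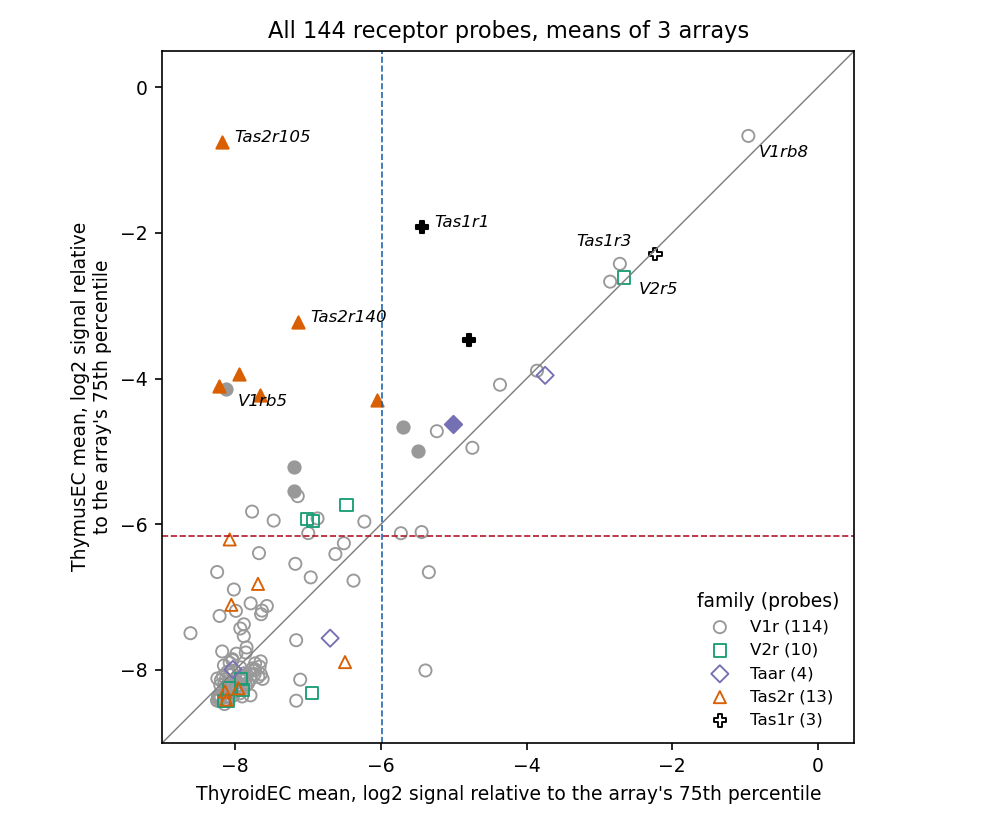
Mean level of each of the 144 receptor probes in ThyroidEC (x axis) and ThymusEC (y axis), as log2 signal relative to the array's 75th percentile, by family. Filled symbols were higher in ThymusEC at an adjusted p under 0.05, the solid line marks equal levels, and the dashed lines are the group means of the lowest signal well above background. Tas2r105 lies farthest from the line, at a thymic mean of -0.75, and V1rb8, Tas1r3 and V2r5 lie near the line.

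Among the sweet and umami receptors, Tas1r1, the umami subunit, separated the tissues and Tas1r3, the shared subunit, did not. Tas1r1 had levels of -1.84, -1.90 and -2.04 in the thymus and of -5.21, -5.73 and -5.37 in the thyroid, where replicate 2 was not above background. All thymic arrays lay far above all thyroid arrays. The probe was higher in ThymusEC by at least 3.38 on the log2 scale (limma adjusted p = 3.04e-06). This bound and the folds written as "at least" set the thymic mean against the thyroid mean after raising each thyroid array that lay below its lowest signal above background to that signal.

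Tas1r2, the sweet subunit, was at -3.54, -3.58 and -3.31 in the thymus and at -5.10, -3.92 and -5.33 in the thyroid. The groups did not overlap, but thyroid replicate 2 lay close to the thymic arrays and more than 1 log2 unit above its own group. The difference was 1.31 (SE 0.36), a 2.47-fold higher level in ThymusEC (limma adjusted p = 0.0145). It missed the threshold in 7 of 21 other fits. Of 5 scalings only the reported one called it, and normexp, quantile normalization, median centring and the deposited value table did not. It also missed without thymic replicate 3 and without thyroid replicate 1. Tas1r3 was at -2.01, -2.43 and -2.44 in the thymus and at -2.63, -1.84 and -2.22 in the thyroid, with overlapping groups and a difference of -0.06 (SE 0.23, limma adjusted p = 0.819). Its sign changed with the slide as a block, to 0.34, and 2 of the 5 scalings called it higher in ThyroidEC. All 3 Tas1r probes were thus read in both tissues, on 17 of 18 probe and array combinations above background.

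Tas2r105, a bitter receptor known to respond to cycloheximide, had the largest difference of all receptors. Its levels were -0.58, -0.89 and -0.77 in the thymus and -8.40, -7.48 and -8.67 in the thyroid. The thyroid arrays lay at the level of the negative control spots, and the groups were far apart. The probe was at least 37.7-fold higher in ThymusEC (limma adjusted p = 1.95e-06).

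Tas2r140 was at -3.06, -3.45 and -3.15 in the thymus and at -6.68, -7.54 and -7.19 in the thyroid, at least 6.79-fold higher in ThymusEC. Tas2r108, known as a receptor for denatonium, was at -3.83, -4.06 and -3.94 against -8.19, -7.26 and -8.40, at least 4.12-fold higher. Tas2r102 was at -3.76, -4.59 and -3.96 against -8.45, -7.47 and -8.76, at least 3.67-fold higher. None of the 3 probes was above background on any thyroid array, and limma's adjusted p was at most 6.80e-05.

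Tas2r107 was at -3.87, -4.42 and -4.37 in the thymus and at -8.46, -7.47 and -7.07 in the thyroid, at least 3.39-fold higher (limma adjusted p = 0.000142). Tas2r118 was at -4.12, -4.22 and -4.52 against -6.13, -6.00 and -6.03, at least 2.91-fold higher (limma adjusted p = 3.30e-05). It was the only Tas2r probe above background on a thyroid array, and there on replicate 3 alone. After normexp background correction Tas2r118 no longer passed.

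The other 7 Tas2r probes could not be tested under the filter. Tas2r116 was at -5.92, -6.24 and -6.46 in the thymus, above background on replicate 1, and at -8.20, -7.51 and -8.52 in the thyroid. Its groups did not overlap, and with no filter it was higher in ThymusEC (limma adjusted p = 0.0019). Tas2r130 was at -4.61 on thymic replicate 1 but at -8.47 and -7.37 on the other 2, within the range of the thyroid arrays. Tas2r110 was at -6.63, -7.48 and -7.20 against -8.02, -7.48 and -8.66, above background on no array.

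Tas2r135 went the other way, at -8.01, -8.26 and -7.40 in the thymus and at -6.46, -6.46 and -6.56 in the thyroid. It was above background on no array, and with no filter it was higher in ThyroidEC (limma adjusted p = 0.00253). Tas2r119, Tas2r136 and Tas2r139 lay between -8.60 and -7.33 on every array, with neither detection flag set. The bitter receptors thus fell into 6 called, 2 seen on thymic replicate 1 but not called, and 5 above background nowhere.

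**Figure D3:**
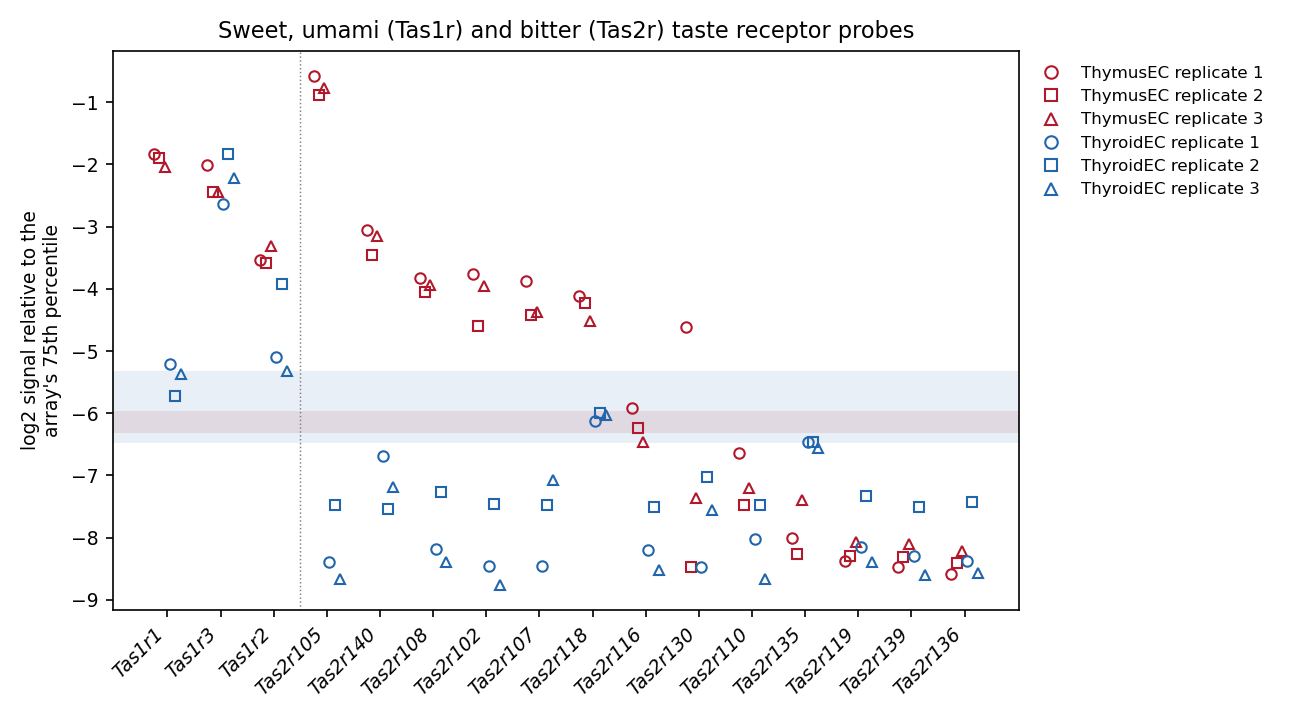
Levels of the 3 Tas1r and 13 Tas2r probes on each array (y axis, log2 signal relative to the array's 75th percentile), with ThymusEC in red, ThyroidEC in blue and a shape per replicate. Shaded bands span the lowest signals well above background on the arrays of each group. Tas1r1 and 6 Tas2r probes have all thymic arrays above all thyroid arrays with a wide gap, Tas1r3 overlaps, and Tas2r130 has 1 thymic array apart from the other 2.

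The called bitter receptors were not neighbours of each other alone. Of the 13 Tas2r probes 12 lie on chromosome 6 and Tas2r119 lies on chromosome 15. The distal cluster at chr6:131596364-133020908 (mm8, 1425 kb) held 8 Tas2r probes, of which Tas2r107, Tas2r105, Tas2r102 and Tas2r140 were called. Tas2r130, Tas2r136, Tas2r116 and Tas2r110 lay between or beside them and were not. Tas2r118 and Tas2r108 lie in other parts of the chromosome.

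The same interval carried 12 probes of other genes, many of them for salivary proline-rich proteins, and 6 of the 12 were higher in ThymusEC and 0 in ThyroidEC, against 29.3% and 24.6% of all probes. Prb1 was at -2.13, -2.56 and -1.83 in the thymus and at -8.09, -7.13 and -8.27 in the thyroid, higher by at least 3.81 on the log2 scale (limma adjusted p = 8.82e-06). The probes of Prp2 were 3.74-fold and 3.08-fold higher. Prh1 was at -0.06, -0.42 and -0.74 against -0.86, -0.16 and -0.57 and overlapped (limma adjusted p = 0.681). These genes belong to a family of close copies, between which a probe may not tell apart.

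**Figure D4:**
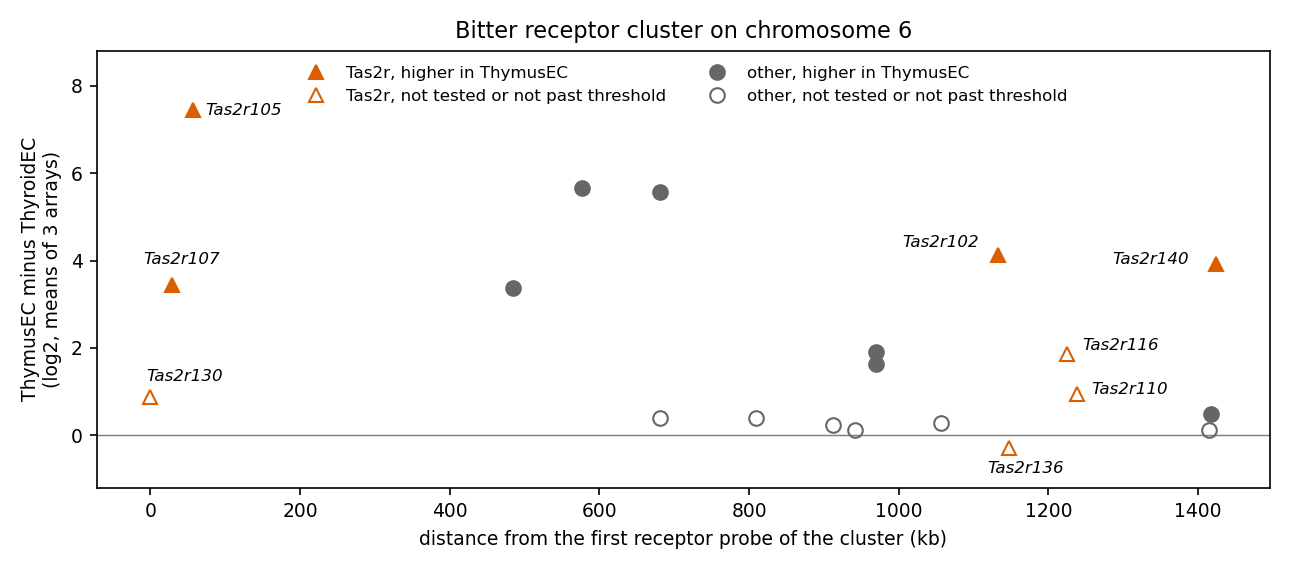
Difference of the group means (y axis, ThymusEC minus ThyroidEC, log2) of each probe in the distal bitter receptor cluster of chromosome 6, by distance from its first receptor probe (x axis, kb). Triangles are Tas2r probes and circles other genes, filled where higher in ThymusEC at an adjusted p under 0.05. The 4 called Tas2r probes lie at both ends of the cluster, interleaved with receptors that were not called.

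Windows at the gene starts of the bitter receptors were read for the octamer ATGCAAAT, the sequence that POU family factors such as Pou2f3 are known to bind. The windows run from 250 bases before to 50 after the RefSeq gene start, were taken from RefSeq on GRCm38.p6, and were searched on both strands. In Tas2r102, Tas2r105, Tas2r108, Tas2r110, Tas2r118, Tas2r130, Tas2r135, Tas2r139 and Tas2r140 the bases after that start open with atg, the letters of a start codon. There the gene start may be the coding start, and the window may not hold the promoter. The shares of the families and of all genes may therefore compare unlike windows. The octamer was in 4 of 11 Tas2r windows (Tas2r107, Tas2r108, Tas2r118 and Tas2r135), in 4 of 96 V1r windows (4.17%), in 0 of 3 Tas1r, 0 of 8 V2r and 0 of 2 Taar windows, and in 1.97% of 27025 genes. The windows of Tas2r genes had a median GC content of 37.7%, those of V1r genes 35.3% and those of all genes 52.7%. The octamer, or ATTTGCAT where it lies on the other strand, is in capitals here, with the bases of the window around it, and the coordinates are those of the whole window.
Tas2r108, chr6:40493342-40493641, plus strand: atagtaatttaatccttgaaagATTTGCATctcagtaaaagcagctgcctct
Tas2r118, chr6:23970011-23970310, minus strand: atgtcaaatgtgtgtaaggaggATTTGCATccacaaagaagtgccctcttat
Tas2r135, chr6:42405279-42405578, plus strand: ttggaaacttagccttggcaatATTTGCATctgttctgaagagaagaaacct
Tas2r107, chr6:131660100-131660399, minus strand: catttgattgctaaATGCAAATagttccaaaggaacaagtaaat
In Tas2r118, Tas2r135 and Tas2r108 the match begins 124, 143 and 146 bases before that atg, in the same orientation. In Tas2r107 it begins 236 bases before the RefSeq gene start, in the other orientation. Of the 6 bitter receptors higher in ThymusEC, 3 had the octamer, while Tas2r105, Tas2r102 and Tas2r140 did not. The windows of those without it may not hold the promoter, so a missing match may only mean that the promoter was not read. Tas2r135 had the octamer but was above background nowhere. The TATA box letters TATAAA, read the same way, were in 4 of 11 Tas2r windows, 39 of 96 V1r windows (40.6%) and 15.7% of all genes. A match describes these letters and shows no bound site.

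Downstream of the taste receptors, most genes of the transduction pathway were higher in the thymus. Of 15 listed genes 11 were measured (Gnat3, Rgs21, Calhm1 and Calhm3 were not found under those names), and 8 of the 11 were higher in ThymusEC and 2 in ThyroidEC, against 37.3% and 31.3% of all tested probes. The median difference of the 11 was 5.10, beside 0.06 over all probes tested. Of the 11, 5 were above background on all 3 thyroid arrays, and the others entered the test only through their thymic arrays. The filter thus favoured the thymic direction. Gng13, a G protein gamma subunit of taste cells, was at 4.21, 3.99 and 4.33 in the thymus and at -5.98, -5.80 and -6.64 in the thyroid, at least 1102-fold higher. Trpm5, the cation channel at the end of the pathway, was at 2.65, 2.40 and 2.47 against -6.54, -7.48 and -6.11, at least 329-fold higher. Plcb2 was at 0.37, 0.23 and 0.19 against -5.79, -6.30 and -8.08, at least 70.1-fold higher. The groups of these 3 genes did not overlap, and limma's adjusted p was at most 3.36e-05.

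Gnb3, a G protein beta subunit, was at 2.66, 2.47 and 2.46 against -3.38, -3.61 and -3.73, above background on all 6 arrays and 68.8-fold higher in ThymusEC (limma adjusted p = 3.16e-07). Pkd2l1 and Pkd1l3, channel subunits of sour-sensing taste cells, were at least 9.55-fold and at least 5.97-fold higher. Itpr3, the calcium release channel that many other cell types also express, was at 4.05, 3.88 and 3.91 against 3.82, 3.73 and 3.98, with overlapping groups (limma adjusted p = 0.461). Pde1a, a phosphodiesterase, and Car4, a carbonic anhydrase of sour-sensing cells, were higher in ThyroidEC, by 3.58 and 3.78 on the log2 scale.

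**Figure D5:**
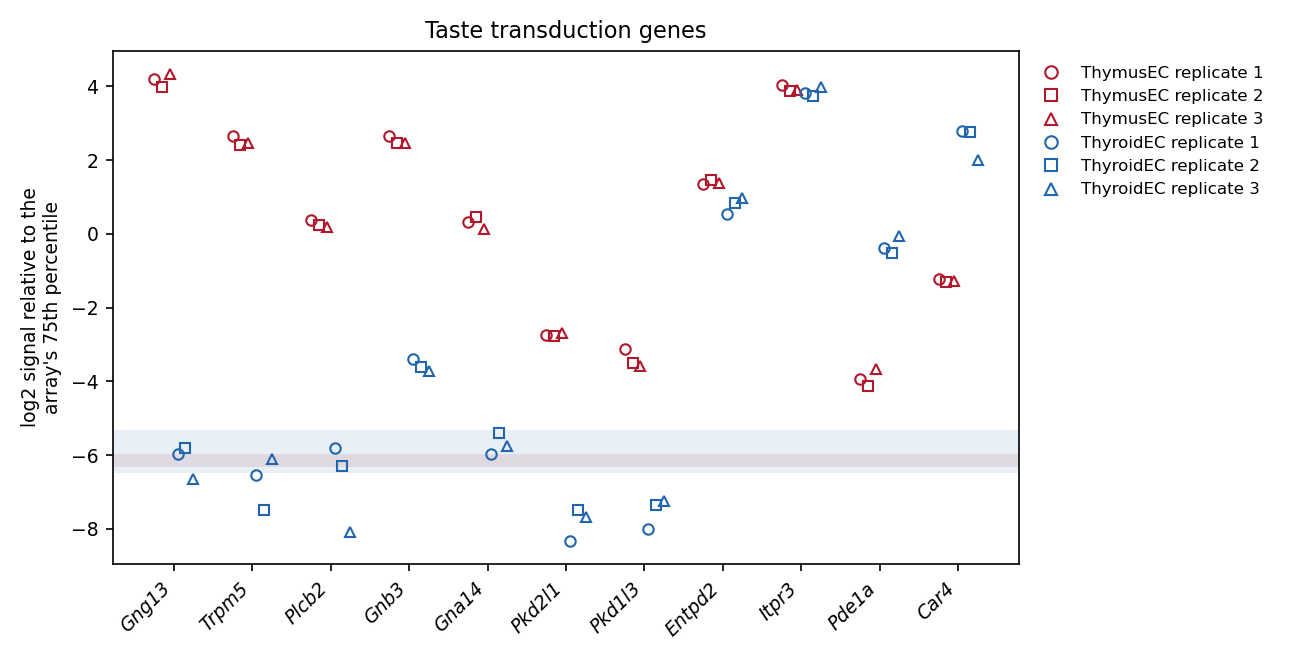
Levels of the 11 measured taste transduction genes on each array (y axis, log2 signal relative to the array's 75th percentile), ordered by the difference of the group means. ThymusEC is red, ThyroidEC blue, with a shape per replicate, and shaded bands span the lowest signals well above background in each group. Gng13, Trpm5, Plcb2 and Gnb3 have a wide gap, Itpr3 overlaps, and Pde1a and Car4 are higher in the thyroid.

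Markers of other cell types moved with the bitter receptors. Of 13 tuft cell markers 12 were measured, and 12 of 12 were higher in ThymusEC, against 37.3% of all tested probes. Of the 12, 5 were above background on all 3 thyroid arrays, and the others entered the test only through their thymic arrays. The filter thus favoured this direction. The summed level of the 12 ran from 5.44 to 5.70 on the thymic arrays and from -0.56 to -0.41 on the thyroid arrays. Pou2f3, a factor that tuft cells require, was at -3.59, -3.86 and -3.44 against -7.31, -7.11 and -7.55. The list shares Trpm5, Gng13 and Plcb2 with the taste pathway. Markers of thymocytes (8 of 8), B cells (4 of 4), and myeloid and dendritic cells (5 of 5) and of medullary epithelium (7 of 8) were higher in ThymusEC as well, against the same 37.3%. In that order 3, 1, 4 and 5 of these markers were above background on all 3 thyroid arrays. The others entered the test only through their thymic arrays. Markers of endothelium (7 of 7) and thyroid follicular cells (7 of 8) were higher in ThyroidEC, against 31.3% of all tested probes. All 7 endothelial markers and 5 of the 8 follicular ones were above background on all 3 thymic arrays. The part of these cell types in the receptor differences was not tested.

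Among the 114 V1r probes, those read in both tissues were mostly at similar levels under the scaling reported. V1rb8 (Vmn1r46) was at -0.67, -0.61 and -0.73 in the thymus and at -0.99, -0.75 and -1.13 in the thyroid. The groups did not overlap, but the difference of 0.29 (SE 0.13) missed the threshold (limma adjusted p = 0.0927). V1rc8 (Vmn1r25) was at -2.73, -2.40 and -2.87 against -2.91, -3.0 and -2.65, and V1ri1 (Vmn1r192) at -2.48, -2.41 and -2.38 against -2.85, -2.45 and -2.87, both with overlap.

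V1ri6 (Vmn1r195) was at -3.97, -3.77 and -3.93 against -4.03, -3.78 and -3.76, V1ra4 (Vmn1r47) at -4.14, -4.30 and -3.81 against -4.08, -4.61 and -4.40, and V1ri4 (Vmn1r201) at -4.78, -4.99 and -5.08 against -5.02, -4.56 and -4.65. All 3 overlapped, with limma adjusted p between 0.231 and 0.819. V1re12 (Vmn1r185) was at -4.66, -4.66 and -4.85 against -5.44, -4.82 and -5.44 and just missed the threshold (limma adjusted p = 0.0509). Of the 5 scalings, 3 called V1ri4 and V1ri6 higher in ThyroidEC, and 1 called V1ra4 and V1re12 so. None of the 5 called any of these probes higher in ThymusEC. These 7 probes had a GC content of 38.3% to 45%. The 87 V1r probes without signal above background lie among the 98 undetected receptor probes. Those 98 ran from 15% to 45% with a median of 36.7%, so the ranges overlap, but the 7 lie above that median. The 11 receptor probes above background on all 6 arrays had a median of 45%. Whether GC content bears on these signals was not tested.

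The V1r probes called higher in ThymusEC were dim in the thyroid. V1rb5 was at -4.94, -3.32 and -4.17 in the thymus and at -8.34, -7.51 and -8.55 in the thyroid, where it was above background on no array. The thymic arrays spread widely (SD 0.81) but stayed apart from the thyroid, and the probe was at least 3.58-fold higher (limma adjusted p = 0.000202). The files give no position for it.
V1rb5: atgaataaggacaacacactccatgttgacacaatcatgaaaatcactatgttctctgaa
V1rb8, chr6:89941983-89942042, plus strand: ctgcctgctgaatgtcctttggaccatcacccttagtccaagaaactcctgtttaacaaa
V1rb8 is printed beside it as the V1r probe of like levels in both tissues.

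V1rb9 (Vmn1r41) was at -4.62, -4.79 and -4.59 against -6.26, -5.19 and -5.64, at least 1.99-fold higher (limma adjusted p = 0.0107), though its difference was -0.16 after quantile normalization. V1rh3 (Vmn1r200) was at -4.84, -5.89 and -5.91 against -7.17, -7.45 and -6.94, at least 1.35-fold higher (limma adjusted p = 0.00285). The other V1rh3 probe was above background on no array. V1ri10 (Vmn1r216) was at -4.96, -5.04 and -4.96 against -5.55, -5.74 and -5.19, at least 1.29-fold higher (limma adjusted p = 0.0261), and it was higher in ThyroidEC after quantile normalization. With the slide as a block the call of V1ri10 was lost (limma adjusted p = 0.0849), and V1ri10 was called higher in ThymusEC in 10 of 21 fits, the reported one included.

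V1rc26 (Vmn1r18) was at -4.85, -5.66 and -5.12 in the thymus and at -8.25, -5.93 and -7.39 in the thyroid. Thyroid replicate 2 lay next to the lowest thymic array, and the probe was at least 1.71-fold higher (limma adjusted p = 0.0171). Without thymic replicate 1 or without thymic replicate 3 the call was lost. V1rc25 (Vmn1r28), whose probe shares 23 bases with that of V1rc26, was at -5.57, -5.54 and -5.73 against -7.48, -7.27 and -6.67. It was above background on 2 thymic arrays and so not tested, and with no filter it was higher in ThymusEC (limma adjusted p = 0.00153). The shared run is in capitals, and the 2 probes may read each other's transcript.
V1rc25, chr6:58195058-58195117, plus strand: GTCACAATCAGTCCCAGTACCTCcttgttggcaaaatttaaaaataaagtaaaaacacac
V1rc26, chr6:57319790-57319849, minus strand: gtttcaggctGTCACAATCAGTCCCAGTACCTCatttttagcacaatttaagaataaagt
Over all receptors 16 of 144 probes shared 20 or more bases with a probe of another gene, and 4 shared 30 or more.

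Some V1r probes leaned towards the thyroid without reaching the filter. V1re11 (Vmn1r66) was at -8.55, -7.58 and -7.90 in the thymus and at -6.05, -5.73 and -4.38 in the thyroid, above background on thyroid arrays 1 and 3. V1rh18 (Vmn1r212) was at -6.03, -6.58 and -7.36 against -5.78, -5.52 and -4.72. With no filter, limma called V1re11 (adjusted p = 0.00401) and V1rh18 (adjusted p = 0.0355) higher in ThyroidEC, together with V1rh4, V1rd3 and a probe of V1rd4.

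The probes of V1rd4 (Vmn1r58) lay 82 bases apart and disagreed. The probe at chr7:5013021 was at -6.34, -5.80 and -6.18 in the thymus and at -5.26, -5.37 and -5.69 in the thyroid, whereas the probe at chr7:5013103 was at -5.78, -5.78 and -6.20 against -6.67, -7.11 and -6.83. Each pair of groups stayed apart, in opposite directions. By subfamily, V1ri had the most probes above background on all 6 arrays, 3 of 10, and V1rc, the largest subfamily, had 23 of 27 above background on none. V1rd, V1rf, V1rg, V1rj, V1rk and V1rl had none above background on all 3 arrays of a group.

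Of the V2r probes only V2r5 (Vmn2r32) was above background on all 3 arrays of a group. It was at -2.79, -2.54 and -2.51 in the thymus and at -2.89, -2.48 and -2.62 in the thyroid, with a difference of 0.05 (SE 0.15, limma adjusted p = 0.776). However, 3 of the 5 scalings called V2r5 higher in ThyroidEC. Both probes of V2r10 (Vmn2r89) had all thymic arrays above all thyroid arrays, at -5.50, -6.55 and -5.71 against -7.17, -6.75 and -7.11 and at -5.84, -6.01 and -6.01 against -7.72, -6.90 and -6.18. With no filter the former passed (limma adjusted p = 0.0206) and the latter did not (0.0667).

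V2r15 (Vmn2r30) was at -5.40, -5.49 and -6.33 against -6.70, -5.84 and -6.87 and overlapped. V2r4 (Vmn2r42) was at -5.16 on thyroid replicate 2 and between -8.49 and -7.32 on the other 5 arrays. The 5 remaining V2r probes, for V2r14, V2r16, V2r1b and V2r6, lay between -8.63 and -7.24 everywhere.

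Of the 4 trace amine receptors, Taar9 and Taar4 could be tested. Taar9 was at -3.78, -3.97 and -4.12 in the thymus and at -3.80, -3.82 and -3.62 in the thyroid, with overlap (limma adjusted p = 0.198). However, 3 of the 5 scalings called Taar9 higher in ThyroidEC. Taar4 was at -4.85, -4.38 and -4.62 against -4.96, -5.10 and -4.96, a difference of 0.39 (SE 0.15) that passed narrowly (limma adjusted p = 0.0496). The call was lost in most other fits, with no filter on dim probes among them (adjusted p = 0.0774), and the difference was -0.73 after quantile normalization. Taar2 was above background on thymic replicate 1 (-6.20) and thyroid replicate 3 (-5.74) alone. Taar1 lay between -8.51 and -7.46 on all 6 arrays and was above background on none.

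The pathways that serve vomeronasal and olfactory receptors in sensory neurons were read for comparison. Of 17 vomeronasal transduction genes 12 were tested, of which 6 were higher in ThymusEC and 3 in ThyroidEC, against 37.3% and 31.3% of all tested probes. The median difference of the 12 was 1.12, or 1.88 by the median of each gene's tested probes, beside 0.06 over all probes tested. Tfap2e, counted for ThyroidEC at -0.67, had 2 tested probes with a median difference of 1.88. All 6 genes higher in ThymusEC entered the test only through their thymic arrays, so the filter favoured that direction. With no filter the untested H2-M1 was higher in ThymusEC (limma adjusted p = 0.00621) and H2-M9 in ThyroidEC (limma adjusted p = 0.00369). Trpc2, the channel of vomeronasal neurons, was at -0.38, -0.61 and -0.37 in the thymus and at -0.49, -0.93 and -0.30 in the thyroid, with overlapping groups (limma adjusted p = 0.590). H2-M10.1, an MHC molecule that accompanies V2r receptors, was at -2.59, -2.98 and -1.78 against -8.30, -7.39 and -8.55, at least 11.6-fold higher in ThymusEC. Its relative H2-M10.5 was at -3.55, -3.64 and -3.30 against -8.09, -7.34 and -8.49, at least 5.60-fold higher. H2-M10.2, above background on all 6 arrays, was at -2.64, -2.32 and -2.41 against -2.16, -2.65 and -3.64 and overlapped (limma adjusted p = 0.400). H2-M10.3, H2-M10.4 and H2-M10.6 were above background on no array.

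Of 16 genes of olfactory and trace amine transduction 15 were measured and 12 tested, of which 8 were higher in ThymusEC and 1 in ThyroidEC, against the same 37.3% and 31.3%, with a median difference of 1.73. Of the 8, Gng13, Ano2 and Omp entered the test only through their thymic arrays. Gnal, the olfactory G protein alpha subunit, was at -4.81, -3.96 and -4.32 against -4.27, -4.76 and -4.21 and overlapped. Omp, which marks mature olfactory neurons, was at -3.55, -3.30 and -3.46 against -6.25, -5.91 and -5.70, at least 4.87-fold higher in ThymusEC. Rtp1 and Rtp2, which carry olfactory receptors to the cell surface, were not above background on all arrays of either group. Of 8 markers of olfactory and vomeronasal neurons 7 were tested, 2 higher in ThymusEC and 1 in ThyroidEC, both below the shares of 37.3% and 31.3% over all tested probes.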

How the data were processed

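Sorted thymic and thyroid epithelial cells were measured on 3 arrays each. The deposited scanner output comes from Agilent Feature Extraction 10.5.1.1 with mm8 probe positions, per the file headers, and holds an intensity per spot, background-subtracted and detrended, with a surrogate where a spot was not above background. The authors also deposited a value table, a linear ratio equal to each processed signal over the array's median. The flag for a signal well above background used a multiple of 13 background SDs.

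Control and outlier spots were left out, which removed the V1rg4 value of thyroid replicate 2, and spots of a probe were averaged. The two-sided test was limma's (version 3.58.1, R 4.3.3), by lmFit with no covariate and then eBayes, and p-values were adjusted over the 32370 probes above background on all 3 arrays of a group. On simulated data with 200 of 32370 probes changed, the fit recovered 49.0% of those changed by 1 on the log2 scale and 82.0% of those changed by 2. In the data 37.3% and 31.3% of tested probes were called, a far larger share than the simulation changed. The recovered shares therefore do not give the power of the reported test. No p-value is given for detection shares, though an exact permutation test had been planned, nor for any list. Members and lists were chosen with earlier results of these data known.

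The text names, per family and direction, up to 4 called probes by difference or lower bound, up to 2 uncalled probes with the smallest difference, all Tas1r, Taar1, up to 2 genes per direction of a pathway list, and Plcb2, Trpm5, Trpc2, Gnal and Omp. Other probes and genes given with values were added after their values were seen. Alternatives were normexp (offset 50), quantile normalization, median centring, the deposited table, other filters, 1 probe per gene, slide and replicate blocks, slide 1 alone, trended variances, a 2-fold call rule and leaving out each array. On slide 1 alone the single thyroid array was given the spread of the thymic ones. Chosen after seeing the data were dim values raised to the array floor, scaling by probes above background everywhere, and leaving out both replicates 3. Replicate numbers did not pair the samples: the deviations of same-numbered arrays correlated at 0.02, -0.06 and -0.06. The 21 probes whose RefSeq name, but not file name, is a vomeronasal receptor were not members. Python 3.11.15 and matplotlib 3.10.9 made the plots.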

Additional observations from a re-analysis of the deposited data

How the results depend on the processing

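The count of receptor probes higher in ThymusEC, 14 as reported, was 6 with normexp background correction, 8 with quantile normalization, 23 with no filter on dim probes and with the weaker detection flag as filter, and 2 among probes above background on all 6 arrays. It ran from 11 to 15 with an array left out. The count higher in ThyroidEC, 0 as reported, was 8 with quantile normalization, 5 with median centring, 5 with the deposited value table, 6 with no filter, 5 with the weaker flag and 3 on slide 1 alone, and 0 to 3 with an array left out.

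By family, the 6 Tas2r calls fell to 0 only among probes above background on all 6 arrays, where none could be tested, and stayed at 6 with each array left out. The 2 Tas1r calls were 1 with normexp, quantile normalization, median centring, the deposited table, the filter on all 6 arrays and without both replicates 3, and 1 to 2 with an array left out. The 5 V1r calls were 0 with normexp, 1 with quantile normalization, 3 with median centring and with the deposited table, 13 with no filter and with the weaker flag, 1 with the filter on all 6 arrays, and 3 to 7 with an array left out. The 0 V2r calls became 1 with no filter, with the weaker flag and without both replicates 3, and 0 to 1 with an array left out. The 1 Taar call (Taar4) was 0 in every fit other than 1 probe per gene, dim values at the floor, scaling by probes above background everywhere and without thymic replicate 1, and 0 to 1 with an array left out.

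The difference in detection share over all receptors, 9.01 points, was 14.8 with the weaker flag, 9.26 on slide 1 alone and 6.69 to 11.6 with an array left out. For Tas2r it was 48.7 points, 41.0 with the weaker flag, and 43.6 to 51.3 with an array left out.

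Differences changed sign as follows. After normexp they were -0.032 for Taar4, -0.056 for V1ri10 and -0.028 for V2r5. After quantile normalization they were -0.73 for Taar4, -0.68 for V1ra4, -0.16 for V1rb9, -0.38 for V1rc8, -0.63 for V1re12, -0.21 for V1ri1, -0.73 for V1ri10 and -0.48 for V2r5. With median centring and with the deposited table they were -0.15 and -0.14 for Taar4, -0.26 and -0.25 for V1ra4, -0.25 and -0.24 for V1rb8, -0.35 and -0.34 for V1rc8, -0.026 and -0.017 for V1re12, -0.24 and -0.23 for V1ri1, -0.030 and -0.020 for V1ri10, and -0.48 and -0.47 for V2r5. With the slide as a block and on slide 1 alone they were 0.34 for Tas1r3, -0.0061 for V1ra4, 0.065 for V1ri4 and 0.14 for V1ri6. Without both replicates 3 they were 0.013 for Tas1r3 and 0.033 for V1ri6. With an array left out, Tas1r3 ran from -0.27 to 0.13, V1ri6 from -0.12 to 0.013 and V2r5 from -0.060 to 0.14. The cause of these changes was not tested beyond the shift in the median of all probes that the scalings bring.

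Replicate numbers were also fitted as a replicate block, which gave 14 receptor probes higher in ThymusEC and 0 in ThyroidEC, gained V1re12 and lost Taar4 (adjusted p = 0.0957). A group whose arrays lie below background gives only a bound, and 11 of the 144 members were above background on all 6 arrays.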

Other observations

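Beyond the 144 members, 21 probes carried other names in the files but belong to vomeronasal receptor genes or pseudogenes in RefSeq, matched by accession or older symbol. Of these, 12 were above background on no array and 4 could be tested. Limma called 2 of the 4 higher in ThymusEC and 0 in ThyroidEC, against 37.3% and 31.3% of all tested probes. Both, Vmn2r57 and Vmn2r14, entered the test only through their thymic arrays. Vmn2r57 was at -3.75, -3.10 and -3.42 in the thymus and at -6.45, -5.65 and -5.64 in the thyroid, at least 4.86-fold higher in ThymusEC (limma adjusted p = 0.000168). All thymic arrays lay above all thyroid arrays, a wider gap than that of any V2r probe among the members. One probe of Vmn2r29 was above background on all 6 arrays, at -5.12, -5.54 and -5.06 against -4.79, -4.91 and -4.95, and missed the threshold (limma adjusted p = 0.0800). The other Vmn2r29 probe was above background on 1 thymic array alone, at -5.75, -7.69 and -6.92 against -6.34, -7.54 and -7.04, with overlap. The pseudogene Vmn2r-ps57 was at -4.63 on thymic replicate 3 and at -7.30 and -7.54 on the other thymic arrays, and a probe of the pseudogene Vmn2r-ps54 at -4.74 on thymic replicate 1 and at -8.47 and -8.27 on the others.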
